A study of Brassica napus with 11 samples.

Results

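The transcripts described here are the homologs of 4 secondary wall regulators of Arabidopsis, *XND1*, *SND3*, *NST1* and *MYB85*, in the funiculus of *Brassica napus* (canola). They were chosen by name, with earlier results of these data known, and are 7 of the 97902 transcripts in the table. These are 3 copies of *XND1* (BnaA02g34250D, BnaA09g06870D and BnaC09g06370D), 2 copies of *SND3* (BnaA07g08370D and BnaC07g10350D), BnaAnng41940D for *NST1* and BnaA01g12370D for *MYB85*. The letter in an ID gives the subgenome, A or C, and "nn" marks a sequence with no chromosome assigned. All 7 stand on the list of vasculature transcripts that the study drew from these same libraries, so a higher level in the vasculature than in the other tissues is given below for its size and spread and is not independent evidence of its direction.

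The funiculus is the stalk that ties the seed to the mother plant. Plants of line DH4079 of cultivar Topaz, the same in every group and with no treatment named, were pollinated, and funiculi were taken 7 days after pollination, when the embryo is globular. Laser microdissection separated the epidermis (3 libraries), the cortex (2) and the vasculature (3), and whole funiculi (3) were collected as a control. Each library pooled dissected pieces from several plants, so the spread between libraries is a spread between pools. The RNA of every library was amplified before sequencing, and in the study's quality records the RNA integrity of each vasculature library was below that of each epidermis and cortex library. Its part in the results was not tested.

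Xylem vessels and fibres lay down a secondary wall of cellulose, xylan and lignin inside the primary wall, and vessels then die to form open tubes. In Arabidopsis this program is switched on by NAC factors, *NST1* among them for fibres and the *VND* genes for vessels, which act through *MYB46* on a second layer of activators. *SND3* is a NAC factor of that layer, *MYB85* is a MYB factor that turns on lignin genes, and *XND1* is a NAC factor that holds secondary wall deposition and cell death back.

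Levels are FPKM, fragments scaled for transcript length and for the mapped reads of the library, as the study computed them. Because FPKM values of a low transcript are whole multiples of what a single fragment is worth, the fragments behind each value could be counted back. In 98.6% of 3000 low transcripts every value came out whole within 0.05 fragments, against 0.0% with the depths of the libraries exchanged. The numbers are the smallest that are possible, and they cover counting error only, since amplified fragments are not independent molecules. Depth relative to whole funiculus 3 was 0.34 to 0.493 for the epidermis, 0.376 and 0.739 for cortex 1 and 2, 0.48 to 0.838 for the vasculature, 0.759 in whole funiculus 1 and 0.186 in whole funiculus 2. The last library grouped apart from all others in the study, which left it out, and it is left out of the main means and tests here and shown on its own. Its FPKM values summed to 1834432, against 439770 to 564579 in the other libraries, so its FPKM are not on their scale. Marker levels followed the tissue labels. The summed level of 7 phloem transcripts was 587 to 778 FPKM in the vasculature, 18.8 to 32.6 in the cortex and 1.84 to 5.64 in the epidermis. That of 6 epidermis transcripts was 1940 to 3690 FPKM in the epidermis, 214 to 706 in the cortex and 1.12 to 16.6 in the vasculature. All 7 phloem markers and 4 of the 6 epidermis markers stand on the study's tissue lists, drawn from these same libraries. Their levels are therefore no independent check of the labels.

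All 7 transcripts were found in each of the 3 vasculature libraries and were listed at 0 in each of the 3 epidermis and 2 cortex libraries. Of 45300 transcripts tested across the tissues, 637 (1.41%) had this pattern, and of the 9492 whose vasculature mean lay in the range of the members it was 145 (1.53%). Zeros in all 5 epidermis and cortex libraries were not particular to the members. From the same vasculature list, 5 of 6 other wall regulators, 7 of 15 wall transcripts and 1 of 7 phloem transcripts had them. So did 2 of 5 regulators not taken from that list. The zeros carry information because of the depth behind them. At its vasculature level, *SND3* BnaC07g10350D would have given 40.4 fragments in the epidermis libraries together and 37.9 in the cortex libraries. The lowest of these expectations belonged to *NST1*, with 8.21 fragments in the epidermis and 7.71 in the cortex. A count of 0 in a library still allows a level worth up to about 3 fragments, which for these transcripts and libraries is between 0.694 and 4.45 FPKM. For the members other than *NST1* the data thus show a lower level and not an absence. For *NST1* this bound was 3.07 to 4.45 FPKM in the epidermis libraries and 4.02 in cortex 1. These bounds lie above its vasculature mean of 2.95, so a 0 in any 1 of these libraries does not show a lower level. In cortex 2 the bound was 2.04 FPKM, below that mean but above the *NST1* values of 1.79 and 1.05 in vasculature 1 and 2. A 0 in the table can also be a failed estimate: among transcripts at 3 to 6 FPKM in the other 2 epidermis libraries, 0.798% to 1.86% were listed at 0 in the remaining library.

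**Figure D1:**
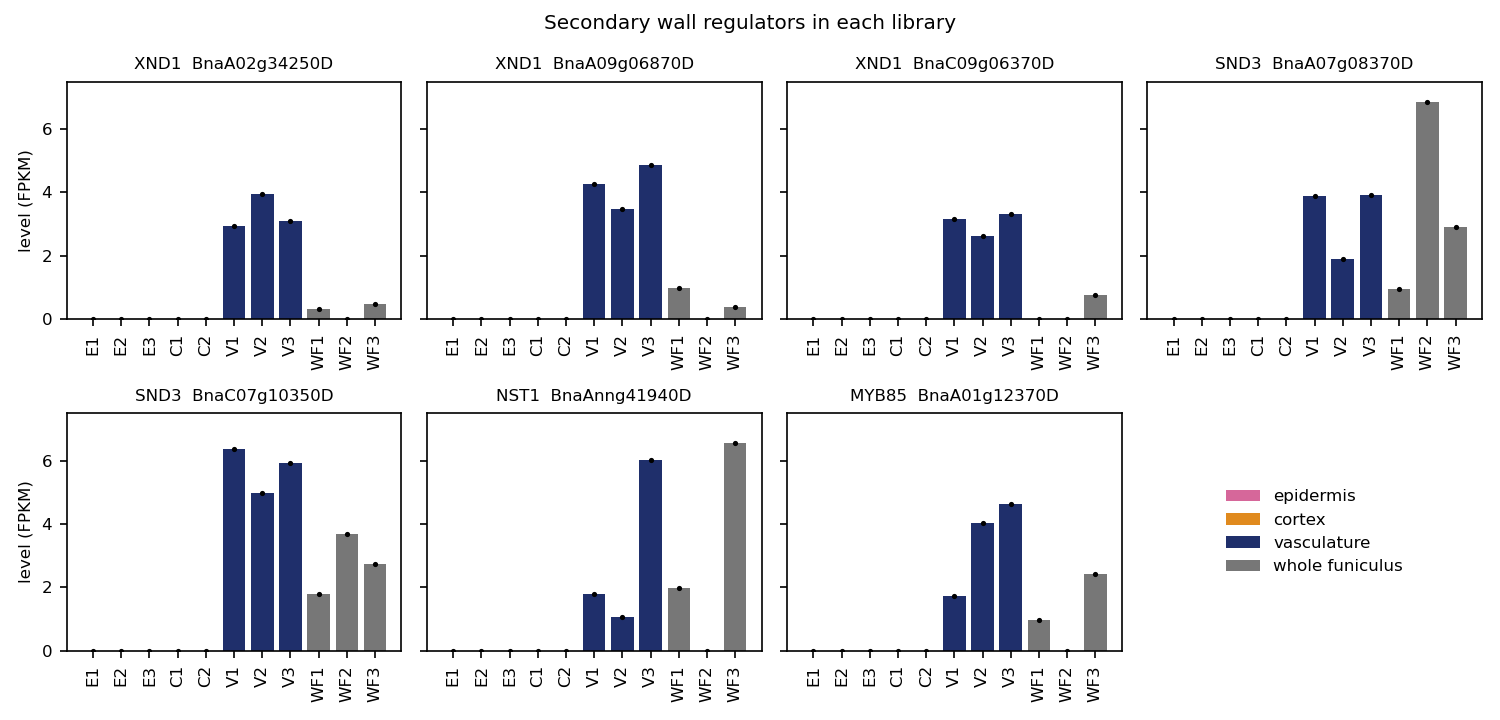
Level in FPKM (vertical axis, linear) of the 7 transcripts in each of the 11 libraries (E for epidermis, C for cortex, V for vasculature and WF for whole funiculus). Bars and dots both mark the value of a single library. All epidermis and cortex bars are at 0. The *XND1* bars differ little across the vasculature and are low in whole funiculus, and *SND3* alone has bars in whole funiculus 2.

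*XND1*, the repressor, varied little between the vasculature libraries. BnaA02g34250D was at 2.94, 3.94 and 3.10 FPKM in vasculature 1, 2 and 3, on 7, 8 and 11 fragments. BnaA09g06870D was at 4.28, 3.47 and 4.86 FPKM, on 13, 9 and 22 fragments. BnaC09g06370D was at 3.15, 2.64 and 3.32 FPKM, on 7, 5 and 11 fragments. BnaA09g06870D was above BnaC09g06370D in each library, by 1.36, 1.32 and 1.46 times, and their ranges did not overlap, while the range of BnaA02g34250D overlapped both. Their means were 3.33 ± 0.535, 4.20 ± 0.698 and 3.04 ± 0.357 FPKM (SD, n = 3), with coefficients of variation of 16.1%, 16.6% and 11.8%. Over the 9492 transcripts of like mean level, the quartiles of that coefficient were 19.2%, 31.0% and 46.7%, so all 3 copies lay below the lower quartile, as did *SND3* BnaC07g10350D at 12.3%. The other *SND3* copy was at 35.8%, *MYB85* at 44.3% and *NST1* at 90.7%. Summed over the copies, *XND1* was at 10.37, 10.04 and 11.29 FPKM, a coefficient of variation of 6.09%. On 5 to 22 fragments a value, counting error alone is expected to spread the values of a copy more than this. The small spread therefore cannot show that the level is more even than that of other transcripts.

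The whole funiculus held little *XND1*. BnaA02g34250D was at 0.311 FPKM in whole funiculus 1 and 0.473 in whole funiculus 3, BnaA09g06870D was at 0.976 and 0.370, and BnaC09g06370D was listed at 0 and at 0.760. None of the 3 copies had a fragment in whole funiculus 2, where the vasculature FPKM would have given 2.58, 4.36 and 2.28 fragments. The FPKM of that library are not on the scale of the others, so these expectations do not settle what its zeros show. For each copy all vasculature values lay above those of whole funiculus 1 and 3. The copies together had 93 fragments in the vasculature and 12 in whole funiculus 1 and 3, a depth-corrected ratio of 0.138 (95% interval 0.0688 to 0.253, counting error only).

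*SND3*, the downstream NAC activator, was at a like summed level in the vasculature but was better seen in the whole funiculus. BnaC07g10350D, the highest of the 7 transcripts, was at 6.38, 4.98 and 5.91 FPKM in vasculature 1, 2 and 3, a mean of 5.76 ± 0.711 (SD, n = 3). BnaA07g08370D was at 3.89, 1.90 and 3.92 FPKM, a mean of 3.24 ± 1.16 (SD, n = 3). The C copy was above the A copy in each library, by 1.64, 2.62 and 1.51 times, and the ranges of the copies did not overlap. In whole funiculus 1 and 3 the C copy was at 1.80 and 2.74 FPKM and the A copy at 0.962 and 2.92. The A copy thus overlapped the vasculature range and the C copy did not. The copies together had 99 fragments in the vasculature and 44 in whole funiculus 1 and 3, a ratio of 0.475 (95% interval 0.325 to 0.685, counting error only). This interval does not meet that of *XND1*, but both leave out the spread between libraries. Summed *SND3* was at 2.765 FPKM in whole funiculus 1 and 5.656 in whole funiculus 3.

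The quotient of summed *XND1* to summed *SND3* gives the same comparison within each library, free of the library's scale. It was 1.01, 1.46 and 1.15 in the vasculature, and 0.466 and 0.283 in whole funiculus 1 and 3. The groups did not overlap, and on the log2 scale the means differed by 1.71, with an exact two-sided permutation p of 0.2, the smallest that the 10 splits of 3 and 2 libraries allow. The quotient was formed after the values had been seen.

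*NST1*, the fibre switch, was the most uneven member. BnaAnng41940D was at 1.79, 1.05 and 6.01 FPKM in vasculature 1, 2 and 3, on 2, 1 and 10 fragments. Vasculature 3 was 5.73 times vasculature 2, and the mean was 2.95 ± 2.68 FPKM (SD, n = 3). It is also the member whose whole funiculus level was not below its vasculature level: it was at 1.99 FPKM in whole funiculus 1 and at 6.55 in whole funiculus 3, inside and just above the vasculature range. On 13 vasculature fragments against 16 from whole funiculus 1 and 3, the ratio was 1.32 (95% interval 0.594 to 2.97). The depth therefore does not tell whether *NST1* was higher in either.

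*MYB85*, the lignin activator, lay between these patterns. BnaA01g12370D was at 1.72, 4.03 and 4.62 FPKM in vasculature 1, 2 and 3, on 4, 8 and 16 fragments, with a mean of 3.46 ± 1.53 (SD, n = 3). It was at 0.956 FPKM in whole funiculus 1 and at 2.42 in whole funiculus 3, which overlaps the vasculature range. The ratio was 0.497 (95% interval 0.236 to 0.991). Both *NST1* and *MYB85* were listed at 0 in whole funiculus 2, where their vasculature FPKM would have given 1.29 and 2.77 fragments. Since the FPKM of that library are on another scale, these expectations do not settle what the zeros show either.

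Differences between tissues were fitted with limma to log2(FPKM + 1) values, and p-values were adjusted over all 45300 transcripts. Against the epidermis all 7 members were higher in the vasculature, where 9.18% of all transcripts were called higher and 6.42% lower. The largest difference was that of *SND3* BnaC07g10350D, 2.75 ± 0.274 on the log2 scale (SE, limma adjusted p = 0.000236), and those of the *XND1* copies were 2.01 to 2.37. *NST1* had the smallest difference and the widest error, 1.78 ± 0.46 (limma adjusted p = 0.0315). The median difference was 2.09 over the members and 0.06 over all transcripts tested. Since these differences are against groups at 0 they follow the pseudocount and are not fold changes. Among the members' own values only those of the vasculature vary, and the errors of limma also draw on the spread of all transcripts. Leaving out any of 7 of the 8 libraries ended the *NST1* call (limma adjusted p from 0.0541 to 0.0818), vasculature 2 being the exception.

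Against the cortex 6 of the 7 were called higher in the vasculature, where 5.73% of all transcripts were called higher and 4.25% lower. The differences are the same as against the epidermis, since both groups are at 0, their errors are wider with 2 cortex libraries, and the median over all transcripts was 0.05. For *SND3* BnaC07g10350D the limma adjusted p was 0.00105 and for the *XND1* copies it was 0.0023 to 0.00497. *NST1* missed the threshold, with a limma adjusted p of 0.0663, and passed it with a smaller pseudocount (0.0451 at 0.5 FPKM), on the TPM scale (0.037) and without vasculature 2 (0.0355). Without cortex 2, *MYB85* missed it (0.052). Cortex and epidermis did not differ for any member by limma, adjusted or unadjusted, all values being listed at 0, while 0.194% of all transcripts were called and 10.5% had an unadjusted p under 0.05.

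**Figure D2:**
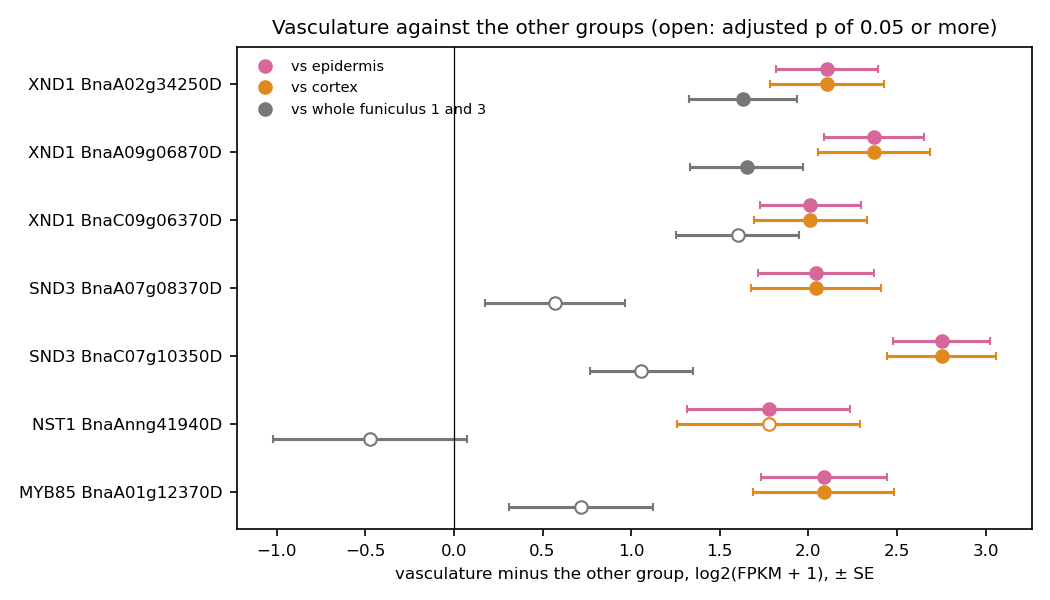
Difference between the vasculature and each other group on the log2(FPKM + 1) scale (horizontal axis) for the 7 transcripts, with the limma standard error as bars. Filled points have an adjusted p under 0.05. The differences against epidermis and cortex lie between 1.78 and 2.75, and those against whole funiculus 1 and 3 run from 1.65 for *XND1* BnaA09g06870D to -0.47 for *NST1*.

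Against whole funiculus 1 and 3, in a fit of 10 libraries and 46004 transcripts, 2 of the 7 members were called higher in the vasculature, both of them *XND1*, where 0.239% of all transcripts were called higher and 1.14% lower. BnaA02g34250D was higher by 1.63 ± 0.307 (SE, limma adjusted p = 0.0343) and BnaA09g06870D by 1.65 ± 0.319 (limma adjusted p = 0.0375). The fit shares its error over all 10 libraries. Both copies are at 0 in every epidermis and cortex library, so these errors draw in part on groups without any spread. The remaining copy, BnaC09g06370D, had a difference of 1.60 and a limma adjusted p of 0.0611. The *SND3* copies had differences of 0.57 and 1.06, *MYB85* of 0.72 and *NST1* of -0.47, with limma adjusted p from 0.144 to 0.795. The median difference was 1.06 over the members and 0.06 over all transcripts tested. Both calls were lost without epidermis 2, epidermis 3, any single vasculature library or whole funiculus 3, and BnaA02g34250D was also lost without whole funiculus 1. Without whole funiculus 3 the remaining copy, BnaC09g06370D, was called instead (limma adjusted p = 0.0365). Both were lost as well at a pseudocount of 0.1 FPKM (0.135 and 0.178) and with whole funiculus 2 included (0.273 and 0.261). With the replicate number as a block in the fit, neither was called (limma adjusted p of 0.131 and 0.121).

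How low a vasculature transcript falls in the whole organ can be read against all vasculature transcripts. Over the 2374 transcripts (5.24%) called higher in the vasculature than in both other tissues, the ratio of the whole funiculus mean to the vasculature mean had a median of 0.448 and quartiles of 0.328 and 0.59. The *XND1* copies were at 0.118, 0.16 and 0.125, above only 1.6%, 3.75% and 2.02% of those transcripts. These ratios rest on 3, 6 and 3 whole funiculus fragments. Their 95% intervals by fragments were 0.0239 to 0.403, 0.0508 to 0.344 and 0.0268 to 0.462 (counting error only). All 3 reach past the lower quartile, so the rank of a single copy is not settled. The interval of the copies together, 0.0688 to 0.253, stays below that quartile. *SND3* was at 0.6 for BnaA07g08370D and 0.394 for BnaC07g10350D, and *MYB85* was at 0.488. *NST1*, at 1.45, was above 99.4% of them, although *NST1* is not among the 2374 itself. Its 95% interval by fragments, 0.594 to 2.97, begins close to the upper quartile, so this rank is not settled either. In bulk tissue, fewer cells of a type and less RNA per cell cannot be told apart. With whole funiculus 2 in the mean, the ratio of *SND3* BnaA07g08370D was 1.11 and that of *NST1* was 0.965, so both crossed 1. The *XND1* ratios were then 0.0786, 0.107 and 0.0834. The FPKM of that library are not on the scale of the others, so neither crossing can be read as a difference in level. Relative to the FPKM total of each library (TPM), *SND3* BnaA07g08370D was at 3.74 there and at 4.04 to 7.54 in the vasculature.

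**Figure D3:**
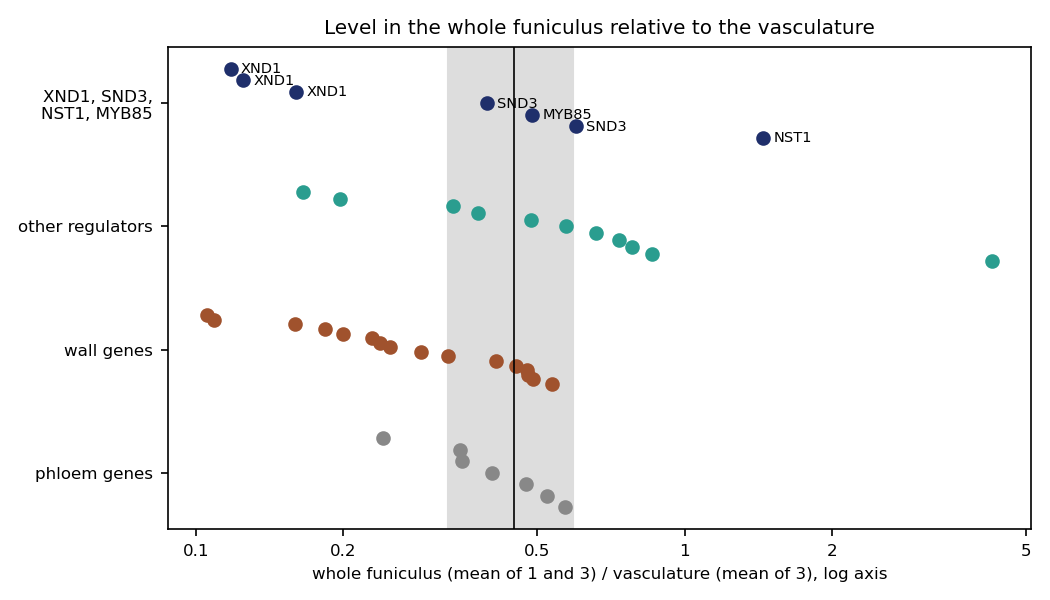
Ratio of the mean level in whole funiculus 1 and 3 to the mean level in the 3 vasculature libraries (horizontal log axis) for the 7 members and for 3 other lists, each point being a transcript and the height within a row carrying no value. The grey band spans the quartiles (0.328 to 0.59) and the line the median (0.448) of the 2374 transcripts called higher in the vasculature than in epidermis and cortex. The *XND1* copies lie left of the band, *SND3* BnaA07g08370D lies just beyond its right edge and *NST1* far to the right.

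The other regulators of the program put the members in context. Of 6 further regulators on the study's vasculature list, all 6 were called higher in the vasculature than in both other tissues, and that list was chosen on these libraries. They are a copy of *MYB46*, the hub between the NAC switches and the second layer, 3 copies of *NAC075*, a promoter of vessel formation, *NAC105*, a vessel switch also called *VND3*, and *NAC083*, or *VNI2*, which represses the vessel switch *VND7*. Of 5 regulators that were not taken from that list, the second *MYB46* copy was higher than in both, *NAC076* (*VND2*) was higher than in the epidermis, *MYB32* was lower than in both, and *NAC073* (*SND2*) and *WRKY13* did not pass. Against the cortex *NAC105* and *NAC075* BnaC07g41850D were not called without either cortex library, with limma adjusted p of 0.0753 to 0.15, and *NAC105* was also lost without epidermis 2, epidermis 3 or vasculature 3. The *NAC076* call was lost without any single epidermis library or vasculature 3, with limma adjusted p of 0.0573 to 0.0658.

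The *MYB46* copies kept most of their level in the whole organ. *MYB46* BnaA10g30020D was at 3.88, 4.93 and 3.04 FPKM in the vasculature and at 2.88 and 3.28 in whole funiculus 1 and 3, a ratio of 0.779. *MYB46* BnaA02g01290D was at 2.84, 3.80 and 4.36 FPKM in the vasculature and 2.41 and 3.88 in whole funiculus, a ratio of 0.857. Both copies overlapped between the groups. *NAC105* BnaC07g16780D had a ratio of 0.198, closer to those of *XND1*, and uneven vasculature values of 1.51, 9.28 and 3.04 FPKM.

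*MYB32*, a MYB repressor of phenylpropanoid genes, ran opposite to the members. *MYB32* BnaA01g02240D was at 22.2, 8.42 and 10.3 FPKM in the epidermis, at 6.44 and 9.22 in cortex 1 and 2, and at 1.95, 0.916 and 1.57 in the vasculature. The vasculature did not overlap either tissue, and the level was lower by limma than in the epidermis (-2.47 on the log2 scale, adjusted p = 0.00275) and than in the cortex (-1.84, adjusted p = 0.03). The cortex call was lost without either cortex library or any single vasculature library, with limma adjusted p of 0.0652 to 0.174.

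The wall-building targets of the program were present in the same libraries at far higher summed levels. Of 16 transcripts for secondary wall and vessel proteins, among them the cellulose synthase *CESA7*, the laccases *LAC11* and *LAC17*, which polymerise lignin, and the vessel proteases *XCP1* and *XCP2*, 15 came from the study's list and the other was *XCP1*. All 16 were higher in the vasculature than in the epidermis and 15 were higher than in both tissues. Their summed level was 269 to 297 FPKM in the vasculature, 2.03 to 4.2 in the epidermis and 3.44 to 29.4 in the cortex. In whole funiculus 1 and 3 it was 66.2 to 107 FPKM. The ratios of single wall transcripts ran from 0.105 to 0.537, so the *XND1* copies lay at the low end of that range and *SND3* BnaA07g08370D and *NST1* lay above it.

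The likeness of profiles was taken as Pearson's r of log2(FPKM + 1) over 10 libraries, with the copies of a gene summed. All these profiles share the 5 libraries in which the members are listed at 0, so r is given as a description. Between the 4 genes, r was highest for *SND3* and *MYB85* (0.95) and for *XND1* and *SND3* (0.948), and lowest for *XND1* and *NST1* (0.697). The transcripts nearest to *XND1* were BnaC07g46190D, a GRAS family transcription factor (r = 0.996), BnaA10g06010D and BnaC09g03540D (both 0.995), BnaA02g36630D, a RAC-like small GTPase (0.993), BnaA03g17730D (0.993) and, next among those with an Arabidopsis pairing, BnaC04g18700D, a thioredoxin (0.992). The GRAS transcript BnaC07g46190D was at 2.51, 2.95 and 2.81 FPKM in the vasculature and at 0.777 and 0.59 in whole funiculus 1 and 3. Like *XND1*, it was lower in both of these than in any vasculature library.

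The nearest to *SND3* was BnaA03g04530D, a homolog of *FIZZY-RELATED 3*, whose product activates the anaphase-promoting complex in the cell cycle (r = 0.999). It was at 4.21, 2.91 and 3.34 FPKM in the vasculature. In whole funiculus 2, which r did not use and whose FPKM are not on the scale of the others, it was at 33.5 FPKM. Next to it were BnaC07g04460D (0.997), BnaA06g26070D, BnaC03g01700D, BnaC09g54570D and BnaC09g10410D (all 0.996). In whole funiculus 2 these were at 9.54, 1.64, 0.179, 0 and 0 FPKM in that order, so presence there was not common to them. BnaC09g03540D, among the nearest to *XND1*, was at 56.8 FPKM in that library, where *XND1* was at 0.

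*NST1* had the weakest likenesses, led by BnaC03g46720D (r = 0.986), BnaA10g25040D, a protein of the heavy metal transport family (0.98), BnaA05g35750D (0.969), BnaA03g17960D (0.96) and BnaCnng37560D (0.957). Among paired transcripts BnaA09g22730D (0.935) and BnaC09g39220D (0.932) came next. BnaC03g46720D was likewise highest in vasculature 3, at 1.69, 1.32 and 5.68 FPKM in vasculature 1, 2 and 3. The second *MYB46* copy, BnaA02g01290D, ranked 58 of 45997 in likeness to *NST1* (r = 0.904).

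*MYB85* was closest to BnaC01g44890D and BnaC05g12230D (both r = 0.995), BnaC09g13560D (0.992), BnaA04g26510D and BnaC01g02450D (both 0.987), and among paired transcripts to BnaAnng25240D, a proline-rich protein (0.987), and BnaA03g22550D, an early nodulin-like protein (0.986). Of the regulators, *NAC076* came nearest to *MYB85*, at rank 48 (r = 0.975). *NAC076* BnaA01g01440D was at 0.934, 1.82 and 3.35 FPKM in vasculature 1, 2 and 3, so both genes were lowest in vasculature 1 and highest in vasculature 3.

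Transcripts numbered next to the members in the annotation were examined too. Of 70 transcripts with IDs within 5 steps of a member, 34 were high enough to be tested, 1 (BnaA02g34300D) was called higher in the vasculature than in both other tissues, and none shared the pattern of zeros. Over all transcripts these shares are 5.24% and 1.41%, so the counts of 1 and 0 do not set the neighbours apart. Each *XND1* copy has a homolog of *BXL4*, a beta-D-xylosidase of the wall, 3 IDs further on, and these 3 neighbours stand on the study's cortex list. *BXL4* BnaA02g34280D was at 106 and 24.1 FPKM in cortex 1 and 2 and at 6.52, 8.42 and 5.56 in the vasculature. *BXL4* BnaA09g06900D was at 97.2 and 11.2 FPKM in the cortex and at 9.85, 1.15 and 8.01 in the vasculature. *BXL4* BnaC09g06400D was at 136 and 21.6 FPKM in the cortex and at 3.88, 0.995 and 4.64 in the vasculature. For all 3 neighbours both cortex values lay above all vasculature values, and cortex 1 was far above cortex 2. By limma BnaA02g34280D (adjusted p = 0.0318) and BnaC09g06400D (adjusted p = 0.018) were lower in the vasculature than in the cortex and BnaA09g06900D was not called (adjusted p = 0.162). Without cortex 1 neither call held (limma adjusted p of 0.201 and 0.141), nor did they hold without vasculature 1 or vasculature 2 (0.0523 to 0.0965), and the first was also lost without vasculature 3 (0.108).

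**Figure D4:**
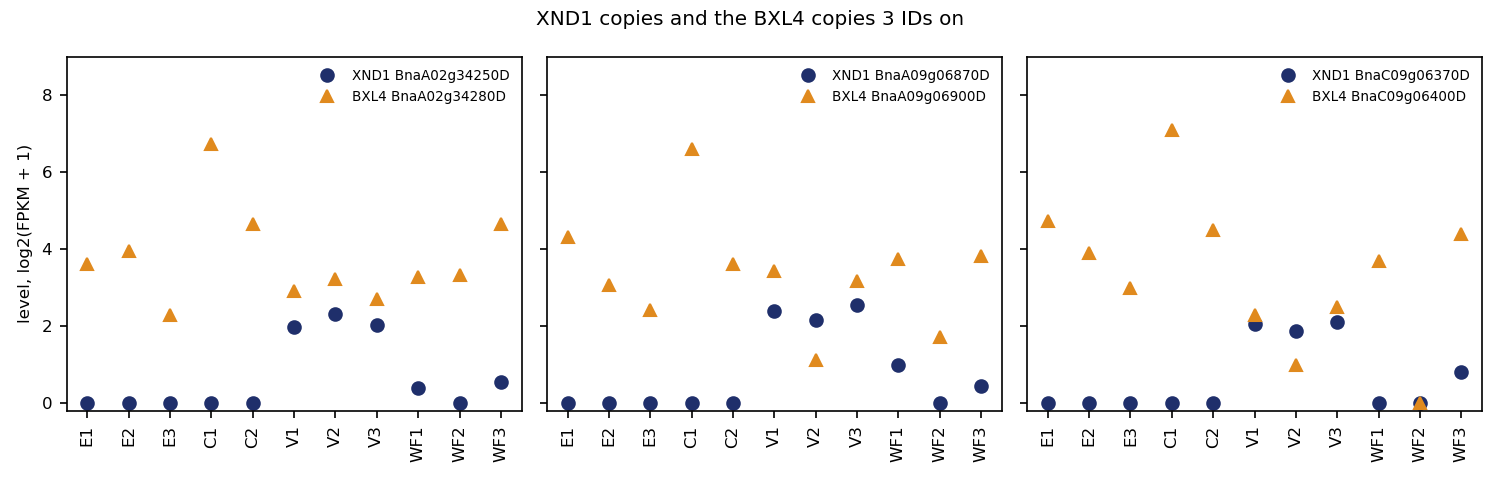
Level on the log2(FPKM + 1) scale (vertical axis) of each *XND1* copy (circles) and of the *BXL4* homolog 3 IDs further on (triangles) in the 11 libraries, named as E, C, V and WF with the library number. *XND1* is at 0 in every epidermis and cortex library, and *BXL4* is highest in cortex 1 in all 3 pairs.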

How the data were processed

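Laser-microdissected funiculus RNA was measured in 11 libraries. Per the labels and the study's methods, the authors amplified the RNA and mapped single-end reads to the *B. napus* reference (TopHat2 2.0.13). Cufflinks 2.2.1 then gave the deposited FPKM, which are scaled for length and depth and were used as they are. The submitters' processing notes also name DESeq. Whether multi-mapped reads were shared out is not given in the sources used here, so copies of a gene may exchange fragments.

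Transcripts were kept where any group averaged 1 FPKM or more. Their log2(FPKM + 1) values went into limma 3.58.1 under R 4.3.3 (eBayes, trend on), two-sided, with Benjamini-Hochberg adjustment and a threshold of 0.05. Whole fragments were recovered with scipy 1.17.1, pandas 2.3.3 and numpy 2.4.6 (Python 3.11.15) and the step was tested on simulated data. Ratio intervals are exact 95% binomial intervals over fragments.

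The members and gene lists were chosen with earlier results of these data known. Named are the 7 members, the listed regulators, the neighbours, and for each gene the 5 transcripts of highest r and the 3 highest with an Arabidopsis pairing in the study's lists. The wall list also held *COBL4*, *FLA11*, *FLA12*, *IRX15*, *GUX1* and *WAT1*. Of the marker lists, 5 cortex transcripts summed to 2430 to 2780 FPKM in the cortex, 410 to 486 in the epidermis and 66.3 to 152 in the vasculature. No member ID matched the RefSeq table, so no coordinates or sequences are given. Alternatives were the pseudocount, the filter, the scale, the variance trend, the libraries in the fit, a replicate block and leaving out each library.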

Additional observations from a re-analysis of the deposited data

Results flagged for a closer look

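Whole funiculus 2, which the main comparisons leave out, held more than 3 fragments of 2 members and 2 further regulators that were listed at 0 in every epidermis and cortex library. Its FPKM total of 1834432 is far above those of the other libraries (439770 to 564579), so each level is also given as TPM, that is, relative to the FPKM total of its library, a scale added after the values were seen. *SND3* BnaA07g08370D was at 6.86 FPKM (7 fragments) there, or 3.74 TPM against 6.91, 4.04 and 7.54 TPM in vasculature 1, 2 and 3. *SND3* BnaC07g10350D was at 3.67 FPKM (4 fragments), or 2.0 TPM against 10.6 to 11.4 TPM. *NAC075* BnaC07g41850D was at 8.05 FPKM (12 fragments), or 4.39 TPM, inside its vasculature range of 3.15 to 11.6 TPM. *WRKY13* BnaA01g05500D was at 37.5 FPKM (35 fragments), or 20.5 TPM, above its vasculature values of 1.26, 6.19 and 0 TPM. The other 5 members were listed at 0 in that library. Its phloem markers summed to 4.25 FPKM, against 309 to 365 in whole funiculus 1 and 3. Its 16 wall transcripts summed to 206 FPKM, of which *FLA11* BnaA03g00780D made up 184 FPKM, and the other 15 summed to 21.2 FPKM, against 62.6 and 102 in whole funiculus 1 and 3. What sets this library apart was not tested.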

How the results depend on the processing

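Other pseudocounts (0.5 and 0.1 FPKM), no filter, the TPM and median-of-ratios scales, no variance trend and the whole funiculus in the tissue fit left the count of members called against the epidermis at 7 and against the cortex at 6 or 7. A filter of 5 FPKM left 1 member to test, which was called in both, and none against the whole funiculus. Leaving out a library gave 6 to 7 members against the epidermis, 5 to 7 against the cortex and 0 to 3 against the whole funiculus. Cortex and epidermis gave 0 throughout. The 2 calls against the whole funiculus became 1 with a pseudocount of 0.5 FPKM, 0 with 0.1 FPKM, 1 on the TPM scale, 0 with whole funiculus 2 included and 3 with no filter or no variance trend. Over all transcripts the number higher in the vasculature than in the whole funiculus was 110, and 56, 20, 35 and 2 under the first 4 of these. No called difference changed sign. The uncalled *NST1* difference against the whole funiculus did, from -0.47 to 0.28 with whole funiculus 2 included and to 0.19 without whole funiculus 3, as did a few other uncalled ones. The causes were not tested.

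With a replicate block the counts were 7 against the epidermis, 6 against the cortex, 0 between cortex and epidermis and 0 against the whole funiculus (13 over all transcripts). The labels do not say whether libraries with the same number share a plant or a day. Deviations of same-numbered libraries correlated at -0.0982 to 0.202, above 0.1 in 2 of 12 pairs. Deviations from the mean of so few libraries are tied to each other, so these correlations cannot decide whether the libraries are paired. Under the block *NAC105*, *MYB32* and *BXL4* BnaA02g34280D also lost their calls against the cortex (limma adjusted p = 0.0648, 0.0701 and 0.0713). Depth limits *NST1* most, with 1 and 2 fragments in vasculature 2 and 1. With 3 or fewer libraries a group, differences that are not small can also go undetected. In values simulated with the spread of the tissue fit, rises of 2, 4, 8 and 16 times in FPKM + 1 were put into the vasculature. Of 50 transcripts each, 0, 18, 42 and 50 were called higher than in both other tissues.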
